A study of Mus musculus with 3 samples.

Results

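Wnt4, Lhx1, Pax2, Pax8, Emx2 and Gata3, 6 genes of kidney epithelium and its induction, were followed across the cell types of the mouse embryonic kidney. They were chosen by symbol, 6 of the 32285 genes counted, and all 6 were found in each of 3 libraries of droplet single-cell RNA sequencing. Each library came from whole kidneys at E15.5 (E, embryonic day) and held the pooled cells of more than 1 embryo, with no map from cells to embryos. The Enl-WT library came from Enl+/+ Wt1GFPCre/+ embryos and the Enl-T1 library from Enl flox-T1/+ Wt1GFPCre/+ embryos, which express a Wilms tumour mutation of the chromatin reader ENL after recombination by Cre. Both libraries are labelled as without treatment, and the study pooled fewer embryos for Enl-WT than for Enl-T1. The Enl-T1 TDI-11055 library, called treated Enl-T1 here, came from embryos of the second genotype whose mothers were given TDI-11055, a small molecule that blocks the acyl-binding pocket of ENL, by mouth at 100 mg/kg each day from E10.5 to E14.5. All embryos, controls included, carried the Wt1-GFPCre knock-in, which inactivates 1 of their copies of Wt1 and drives Cre in nephron and stromal cells but not in the ureteric epithelium. Each group was 1 library without replicates, so no test between groups was possible, no p-value was computed, and the 95% intervals given cover no error other than that of counting.

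Nephrons form when a signal from the ureteric bud, WNT9B, induces progenitors of the cap mesenchyme to leave self-renewal. Induced cells begin to express Wnt4, a secreted ligand that drives the change from mesenchyme to epithelium, and then Lhx1, a LIM-homeobox transcription factor needed from the renal vesicle onwards. Pax2 and Pax8 encode paired-box transcription factors that specify the nephric lineage and are partly redundant. Emx2, a homeobox gene, and Gata3, which encodes a zinc-finger transcription factor, are known from the ureteric bud and its derivatives, and both are also used in tubules.

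In the GENCODE annotation of build GRCm38 (mm10), Wnt4 (ENSMUSG00000036856) lies at chr4:137277489-137299726 on the plus strand and Lhx1 (ENSMUSG00000018698) at chr11:84518284-84525535 on the minus strand. Neither overlaps another gene. The remaining 4 genes overlap genes on the opposite strand, so that their counts are exact only if strand was kept in counting. Pax2 (ENSMUSG00000004231, chr19:44756045-44837871, plus strand) overlaps 1700039E22Rik and Gm20395, and Pax8 (ENSMUSG00000026976, chr2:24420560-24475599, minus strand) overlaps Gm13415. Emx2 (ENSMUSG00000043969, chr19:59458372-59465357, plus strand) overlaps Emx2os, and Gata3 (ENSMUSG00000015619, chr2:9857078-9890034, minus strand) overlaps 4930412O13Rik and Gm13256.

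The sequences just upstream of the starts of Wnt4 and Lhx1 are shown because the levels of these genes lay in opposite directions between the Enl-T1 and Enl-WT nephron progenitors described below. They are from RefSeq on GRCm38.p6, 5′ to 3′ on the strand of the gene, and capitals mark matches on either strand to a GC box (GGGCGG) or a CCAAT box (CCAAT).
Wnt4, chr4:137277385-137277488, plus strand: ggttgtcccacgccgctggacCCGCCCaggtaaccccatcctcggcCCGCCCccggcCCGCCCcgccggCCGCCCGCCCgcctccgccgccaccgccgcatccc
Lhx1, chr11:84525536-84525784, minus strand: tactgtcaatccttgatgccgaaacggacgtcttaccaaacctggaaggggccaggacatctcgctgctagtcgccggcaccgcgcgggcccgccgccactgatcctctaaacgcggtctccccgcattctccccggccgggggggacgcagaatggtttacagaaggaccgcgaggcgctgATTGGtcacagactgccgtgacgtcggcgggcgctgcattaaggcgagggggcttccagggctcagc
The 104 bases of Wnt4 are 83.7% G or C and hold 16 CpG dinucleotides and 5 GC-box matches, of which the last 2 overlap. A GC box occurs in 10.95% of 32851 promoter windows of the same length, the first 104 of the 250 bases before each RefSeq start. Those windows end short of that start, while the Wnt4 bases end at its GENCODE start, so the positions are not matched. The 249 bases of Lhx1 are 64.7% G or C, with 26 CpG dinucleotides and 1 CCAAT match, a motif found in 33.8% of windows of that length. The TCF/LEF core CTTTGA and the posterior Hox core TTTAT, searched on both strands, did not occur in either window. Their shares were 6.51% and 20.8% of windows of 104 bases, and 13.8% and 37.2% of windows of 249 bases.

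After the filter on barcodes (1000 to 6000 genes detected, mitochondrial share at most 10%), 5233 of 7186 Enl-WT, 4144 of 6575 Enl-T1 and 2754 of 6453 treated Enl-T1 barcodes were kept. The kept cells had median unique molecular identifier (UMI) counts of 5090, 9391 and 16931.5, and 5 to 8 barcodes were shared by any 2 libraries. Cells with UMIs of Xist and none of 4 Y-linked genes, counted as female, were 26.5%, 73.3% and 35.1%. Cells with the reverse, counted as male, were 46.5%, 16.5% and 35.4%, and the rest were left unassigned. Levels are UMIs summed over the cells of a class scaled to a total of 1000000 UMIs in that class (CPM), with exact Poisson intervals, and are not compared between genes. Cell classes were rebuilt by clustering, with the 6 genes left out of it, and were named "-like" from marker lists. Endothelial-like cells, which should lack most of these genes, held Wnt4 at 18.3, 40.0 and 8.39 CPM in the Enl-WT, Enl-T1 and treated Enl-T1 libraries, and these levels are given as background beside low values.

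Between libraries, a ratio of CPM was divided by the median ratio of all genes with a mean of at least 5 CPM in that class, and is called the relative ratio. In the nephron progenitor-like class that median was 0.789 when Enl-T1 was set over Enl-WT and 1.00 when treated was set over untreated Enl-T1. A gene was called past 1.5-fold in either direction, in classes of at least 50 cells in both libraries. Classes of 30 to 49 cells are also given where stated, a limit added after the class sizes were seen. The 3 comparisons share libraries and are not independent of each other. Simulated data with counting error alone, and 200 of 9915 genes changed 2-fold in the nephron progenitor-like class, gave calls for 100% of the changed genes and 1.43% of the rest. They held no differences between embryos, preparations or libraries, and smaller classes were not simulated. They therefore give no rate of false calls for the real comparisons.

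In the Enl-WT kidney each gene had its own set of high classes among the 17 with at least 50 cells. Wnt4 was highest in an unnamed stromal class led by Gap43, Nrxn3 and Apcdd1 (652 CPM) and in committed nephron-like cells (636 CPM), whose intervals overlapped. Urothelium-like cells (539 CPM) and cells of the ureteric trunk and collecting duct (453 CPM) followed, each below the one before by more than counting error. Nephron progenitor-like cells stood sixth at 183 CPM and podocyte-like cells last at 11.9 CPM. Lhx1 was highest in committed nephron-like cells (441 CPM), then in cells of the distal tubule and loop of Henle (192 CPM), and both steps exceeded counting error. Ureteric tip-like, proximal tubule-like and podocyte-like cells followed at 84.2, 81.5 and 72.2 CPM with overlapping intervals.

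Pax2 was at 408 CPM in the ureteric trunk, 363 CPM in nephron progenitor-like, 319 CPM in distal tubule-like, 309 CPM in ureteric tip-like and 305 CPM in committed nephron-like cells. Pax8 was at 191 CPM in committed nephron-like cells and at 142, 138 and 132 CPM in distal tubule-like, proximal tubule-like and ureteric trunk-like cells. Emx2 was at 144 CPM in proximal tubule-like and 138 CPM in distal tubule-like cells, and at 4.34 CPM in nephron progenitor-like cells. The 5 highest classes of Gata3 included the ureteric trunk (536 CPM), the urothelium (448 CPM) and the ureteric tip (429.7 CPM), and renin and mesangial-like cells of the stroma held 332 CPM. Its lowest class was the nephron progenitor-like one, at 3.92 CPM. Wnt4 and Gata3 were thus found at high level in stromal classes as well as in epithelium.

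**Figure D1:**
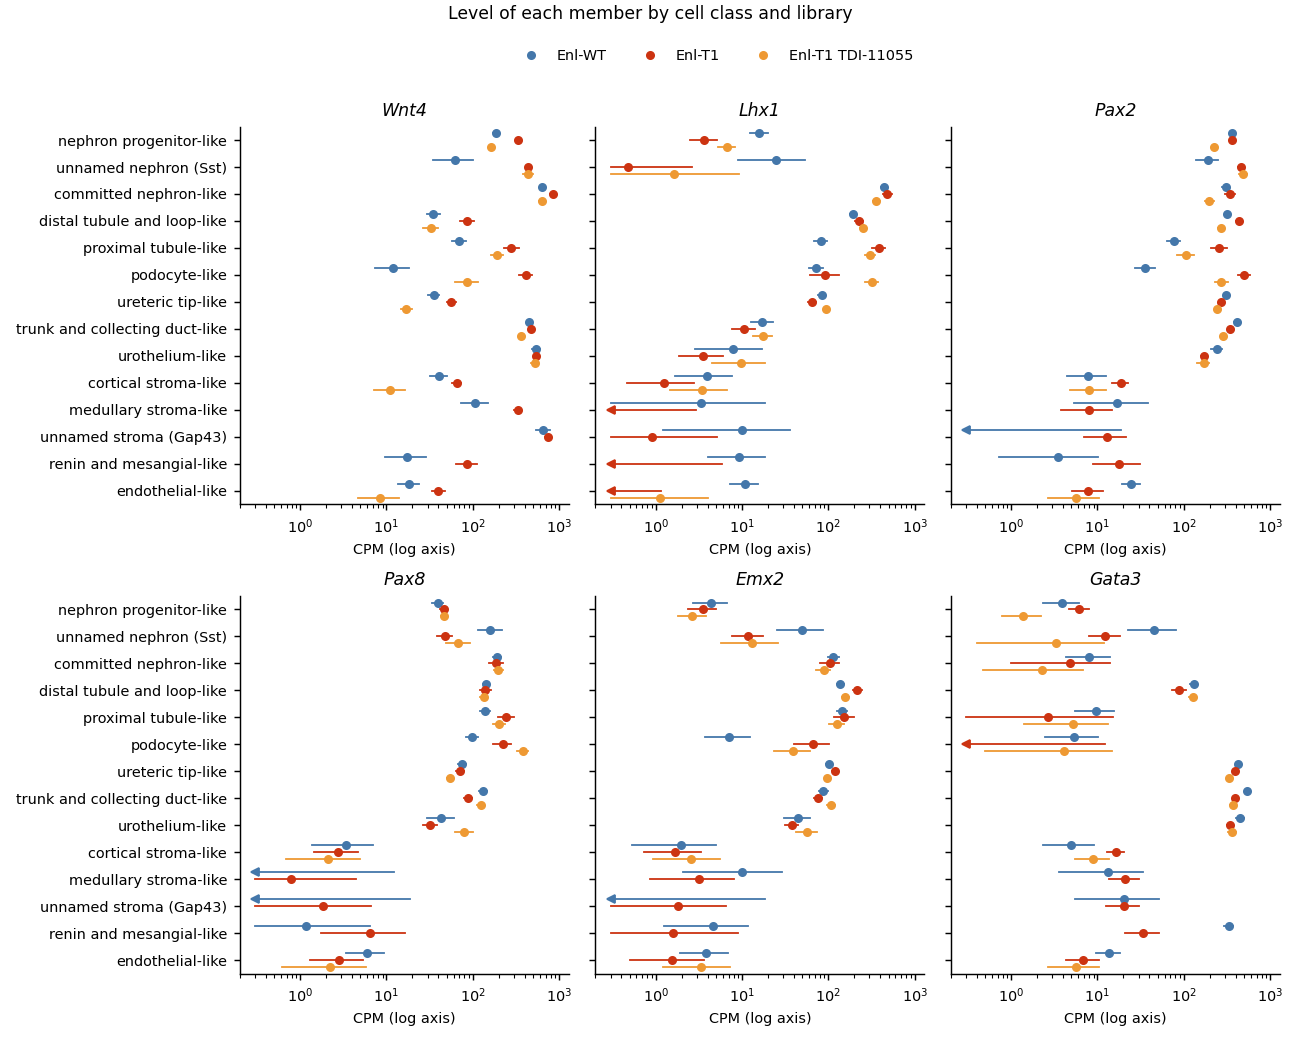
Levels of the 6 genes (CPM, logarithmic axis) in the cell classes, with 1 point for each library of at least 30 cells and exact Poisson 95% intervals; arrowheads at the left edge mark classes with no UMI. Wnt4 in nephron progenitor-like cells lies at 183, 333 and 162 CPM in the Enl-WT, Enl-T1 and treated Enl-T1 libraries, and Gata3 in renin and mesangial-like cells at 332 and 33.6 CPM in the first 2.

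Nephron progenitor-like cells numbered 859, 743 and 675 in the Enl-WT, Enl-T1 and treated Enl-T1 libraries, at median depths of 5114, 11516 and 19240 UMIs. The 10 markers of the class summed to 1286.5, 415 and 894 CPM. Within them Cited1, a marker of uninduced progenitors, was at 308, 67.0 and 199.9 CPM, and Six2, the transcription factor that maintains them, at 164, 78.8 and 169.7 CPM. Of its 5 clusters, 4 were led by cell-cycle genes, had none of the 10 markers among their leading genes and took the name from the mean fold of the markers, of which 9 or 10 were detected. A cluster led by Rspo3 and Cited1 was the largest in Enl-WT (341 cells) and treated Enl-T1 (185 cells), and an S-phase cluster led by Ung and Cdc6 the largest in Enl-T1 (211 cells).

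Of the 5 genes high enough to be counted in these cells, Wnt4 and Gata3 were called higher and Lhx1 lower in Enl-T1 with Enl-WT as the reference, against 27.2% of all 9913 genes called. Wnt4 was at 183 CPM (172 to 196) in Enl-WT, 333 CPM (322 to 345) in Enl-T1 and 162 CPM (155 to 169) in treated Enl-T1. The levels of Enl-WT and treated Enl-T1 lay closer to each other than to that of Enl-T1, whose interval met neither of theirs. The relative ratio was 2.30 (2.14 to 2.49) for Enl-T1 over Enl-WT, 0.484 (0.457 to 0.513) for treated over untreated Enl-T1 and 1.11 (1.02 to 1.2) for treated Enl-T1 over Enl-WT. Over the alternatives tried these ranged from 1.82 to 2.53, from 0.407 to 0.614 and from 0.882 to 1.55. The ratio of Enl-T1 over Enl-WT was 2.20 in female cells alone, 2.25 in male cells alone and 2.17 with the endothelial-like level of each library subtracted from every gene and the median ratio taken anew. In endothelial-like cells themselves, at their lower level, the relative ratios of Wnt4 were 2.72 (1.96 to 3.82) for Enl-T1 over Enl-WT and 0.218 (0.118 to 0.373) with the drug, so the background moved in the same order as the progenitors.

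The relative ratio of Wnt4 for Enl-T1 over Enl-WT was above 1 in each of the 5 progenitor clusters, but by unequal amounts. In the cluster led by Rspo3 and Cited1, genes of uninduced progenitors, it was at 24.1, 119 and 31.0 CPM in the 3 libraries. The relative ratio of Enl-T1 over Enl-WT there was 6.41 (4.49 to 9.41). In the cycling clusters the Enl-WT level was already 190.2 to 284 CPM and the ratio 1.42 to 2.11, the lowest in a cluster led by Ccnb2, where the levels of 235 and 251 CPM had overlapping intervals. The 5 ratios of treated over untreated Enl-T1 lay between 0.25 and 0.7. The endothelial-like levels of 18.3, 40.0 and 8.39 CPM are near the Enl-WT value in the Rspo3 cluster and below those of the other two libraries.

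**Figure D2:**
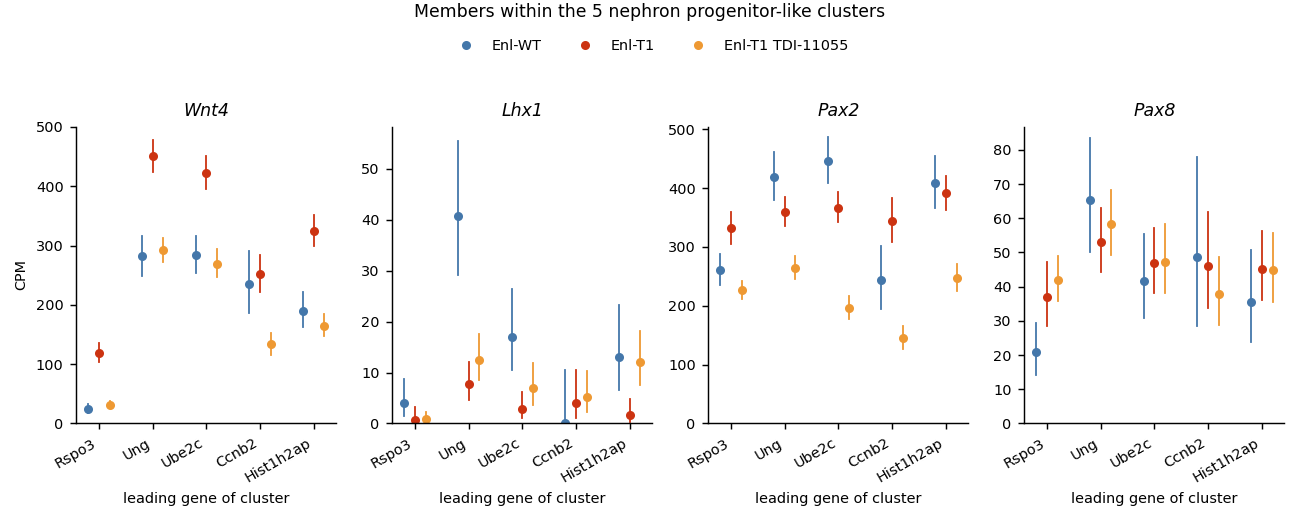
Levels of Wnt4, Lhx1, Pax2 and Pax8 (CPM) in the 5 nephron progenitor-like clusters, each named by its leading gene, with 1 point for each library and exact Poisson 95% intervals. Wnt4 in the Rspo3 cluster lies at 24.1, 119 and 31.0 CPM, and the Enl-T1 point is the highest of the 3 in each cluster.

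Lhx1, which follows Wnt4 in normal induction, was at 15.9 CPM (12.6 to 19.9) in Enl-WT, 3.62 CPM (2.49 to 5.08) in Enl-T1 and 6.70 CPM (5.30 to 8.37) in treated Enl-T1 nephron progenitor-like cells. It was therefore lowest in the library in which Wnt4 was highest. The relative ratio was 0.288 (0.186 to 0.439) for Enl-T1 over Enl-WT. It was 1.85 (1.22 to 2.87) for treated over untreated Enl-T1 and 0.529 (0.381 to 0.734) for treated Enl-T1 over Enl-WT. These values are close to background: endothelial-like cells held Lhx1 at 10.7, 0 and 1.12 CPM (a count of 0 allows up to 0.938 CPM), and with these subtracted the ratio to Enl-WT was 0.850 for Enl-T1 and 1.30 for treated Enl-T1. In the Ung cluster, the highest for Lhx1 in Enl-WT, the levels were 40.8, 7.77 and 12.4 CPM, which in Enl-WT is above the endothelial-like level. In 4 of the 5 clusters the ratio of Enl-T1 over Enl-WT lay between 0.155 and 0.243. In the Rspo3 cluster it rested on 1 Enl-T1 and 6 Enl-WT UMIs, with an interval of 0.004 to 1.52. The Ccnb2 cluster lay the other way, with 4 Lhx1 UMIs in Enl-T1 and 0 in Enl-WT.

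Pax2 differed between the libraries mainly with the drug. Its level was 363 CPM (346 to 380) in Enl-WT, 361 CPM (349 to 373) in Enl-T1 and 223 CPM (214 to 232) in treated Enl-T1. Of the 4 genes counted for treated over untreated Enl-T1, Pax2 and Wnt4 were called lower and Lhx1 higher, against 14.1% of all genes called. The relative ratio of Pax2 was 0.616 (0.584 to 0.648) in that comparison, with 0.591 to 0.646 over the alternatives and 0.417 to 0.710 in the 5 clusters. For Enl-T1 over Enl-WT it was 1.26 (1.19 to 1.34), while the plain CPM ratio was 0.995, so that its direction there depended on the scaling. For treated Enl-T1 over Enl-WT only Lhx1 of the 4 genes was called, lower, against 39.6% of all genes, and Pax2 was at 0.771 (0.725 to 0.819).

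Pax8 was at 39.5, 46.3 and 46.3 CPM, with a relative ratio of 1.49 (1.25 to 1.77) for Enl-T1 over Enl-WT, just inside the limit, and 0.999 (0.877 to 1.14) for treated over untreated Enl-T1. Its background in endothelial-like cells was 5.87, 2.81 and 2.24 CPM. Gata3 was called higher in Enl-T1, at 3.92, 6.14 and 1.38 CPM and a relative ratio of 1.98 (1.16 to 3.53), but these levels are below those of endothelial-like cells (13.5, 6.88 and 5.59 CPM), and in male cells alone the ratio was 0.960. Emx2 was at 4.34, 3.51 and 2.66 CPM, too low to be counted. In these cells Gata3 and Emx2 could not be told from background.

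**Figure D3:**
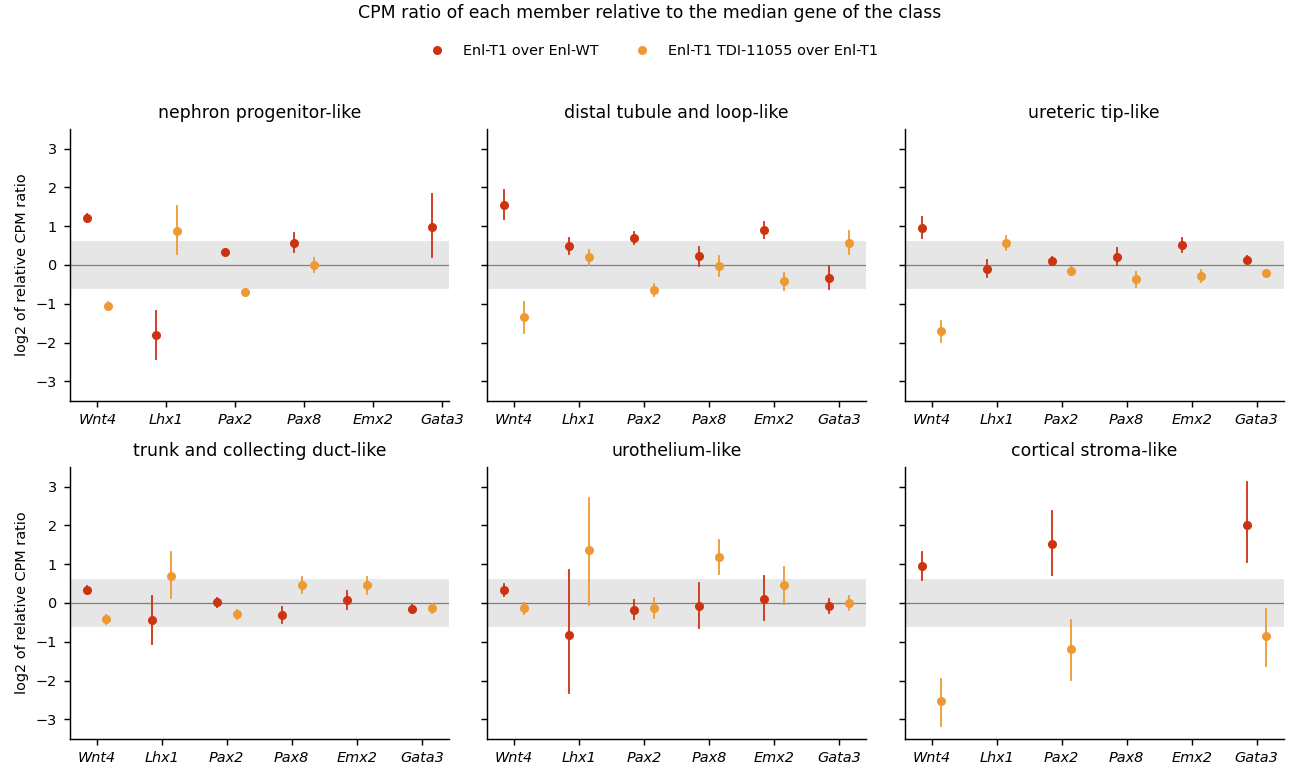
Relative ratios (log2 scale) of the 6 genes in 6 classes for Enl-T1 over Enl-WT (red) and treated over untreated Enl-T1 (orange), with exact 95% intervals for counting error; the grey band marks ratios within 1.5-fold. In nephron progenitor-like cells Wnt4 stands at 2.30 and 0.484 on the linear scale, on opposite sides of the band.

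Depth per cell differed between libraries, so shares of cells were taken after thinning each cell to 2000 UMIs, with 2 to 11 shallower nephron progenitor-like cells left out per library. Wnt4 was found in 17.5% (15.0 to 20.2) of nephron progenitor-like cells in Enl-WT, 38.1% (34.5 to 41.7) in Enl-T1 and 23.5% (20.3 to 26.9) in treated Enl-T1, and in 3.12%, 7.78% and 0.862% of endothelial-like cells. Without thinning these shares were 30.6%, 73.2% and 54.4%. Pax2 was found in 45.5%, 48.9% and 36.0% of nephron progenitor-like cells in the Enl-WT, Enl-T1 and treated Enl-T1 libraries and in 1.56% to 2.86% of endothelial-like cells. Pax8 was found in 5.90%, 8.50% and 8.17%, against 1.56%, 0.389% and 0 of 116 endothelial-like cells, the last of which allows up to 2.59%. Lhx1 was found in 2.00% (1.17 to 3.19), 0.810% and 2.08% of nephron progenitor-like cells, with overlapping intervals, and in at most 0.862% of endothelial-like cells. The shares of Gata3 (0.297% to 0.810%) were below those of endothelial-like cells in all 3 libraries, and those of Emx2 (0.810% to 0.943%) in 1.

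At this depth the 3 induction genes Wnt4, Lhx1 and Pax8 were seldom found together in nephron progenitor-like cells. Cells with UMIs of exactly 1 of them were 20.3% (17.6 to 23.1) in Enl-WT, 40.6% (37.1 to 44.3) in Enl-T1 and 26.3% (23.01 to 29.8) in treated Enl-T1. Cells with at least 2 of them were 2.48% (1.54 to 3.76), 3.37% (2.20 to 4.94) and 3.57% (2.30 to 5.26), with overlapping intervals. Without thinning, at least 2 of them were found in 10.48%, 31.8% and 28.6% of cells, from libraries of unequal depth. After thinning the first share thus differed between Enl-T1 and Enl-WT beyond counting error and the second did not. Lhx1 was found in 5 of 148 Enl-WT cells with Wnt4 (3.38%), 2 of 282 Enl-T1 cells (0.709%) and 9 of 158 treated Enl-T1 cells (5.70%). Wnt4 and Pax2 were found together in 10.0%, 18.8% and 9.81% of cells.

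In committed nephron-like cells, at the same depth, at least 2 of the 3 genes were found in 94 of 208 Enl-WT cells (45.2%), 23 of 40 Enl-T1 cells (57.5%) and 39 of 94 treated Enl-T1 cells (41.5%). Lhx1 was found there in 57.0%, 53.3% and 50% of cells with Wnt4, with overlapping intervals. Distal tubule-like cells had at least 2 of them in 11.5%, 8.41% and 10.96%. In endothelial-like cells the share was 2 of 385 in Enl-WT, 0 of 257 in Enl-T1 and 0 of 116 in treated Enl-T1, and the last 2 allow up to 1.17% and 2.59%.

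**Figure D4:**
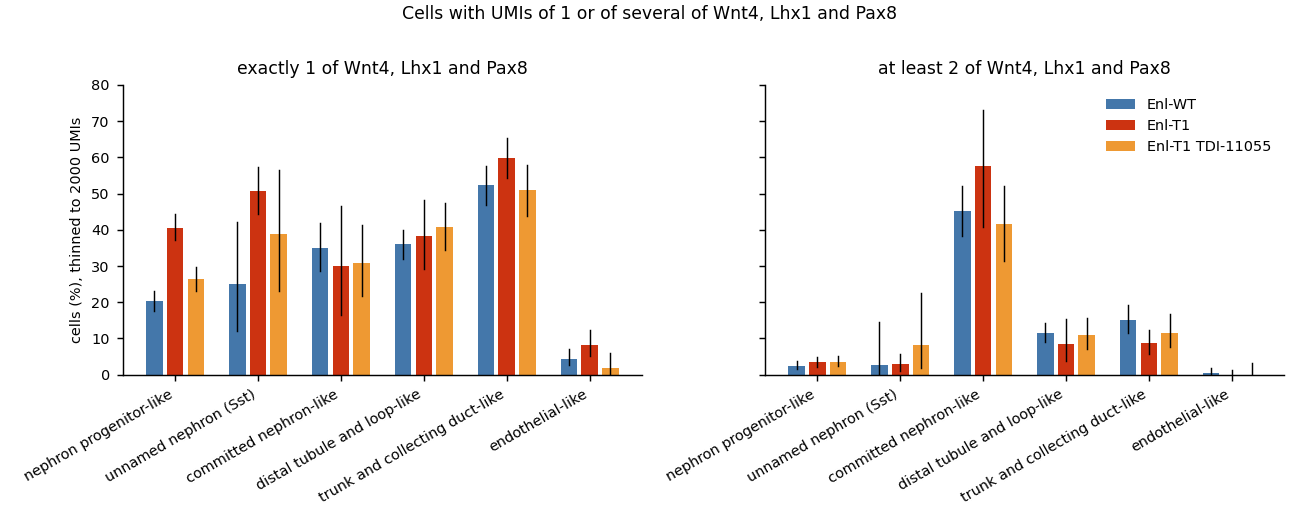
Share of cells (%, from 0) with UMIs of exactly 1 or at least 2 of Wnt4, Lhx1 and Pax8 in 6 classes and 3 libraries, after thinning to 2000 UMIs, with exact binomial 95% intervals. In nephron progenitor-like cells exactly 1 gene was found in 20.3%, 40.6% and 26.3% of cells and at least 2 in 2.48%, 3.37% and 3.57%.

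A list of 25 genes of the same pathway (WNT, FGF and BMP ligands, WNT effectors and cap mesenchyme transcription factors) gave the setting in nephron progenitor-like cells. For Enl-T1 over Enl-WT, 17 were high enough to be counted, and 3 were called higher and 2 lower, a share near the 27.2% of all genes called. Their median relative ratio was 0.940, where that of all genes is 1 by construction. Lef1, a DNA-binding partner of β-catenin and a target of WNT signalling, was at 7.23 CPM in Enl-WT, 27.5 CPM in Enl-T1 and 6.96 CPM in treated Enl-T1. Its relative ratio was 4.83 (3.38 to 7.08) for Enl-T1 over Enl-WT, while treated over untreated Enl-T1 gave 0.252 (0.194 to 0.325). In endothelial-like cells Lef1 was at 5.18, 11.6 and 7.27 CPM, with ratios of 2.78 (1.49 to 5.44) and 0.653 (0.319 to 1.26), so Enl-T1 was the highest library there too. Axin2, a feedback inhibitor of the same pathway, was at 22.1, 19.0 and 17.2 CPM and was not called. Tcf7l1, which represses WNT targets, was at 157, 41.8 and 61.4 CPM, with a ratio of 0.337 (0.297 to 0.381) for Enl-T1 over Enl-WT.

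Bmp2, a secreted ligand, was at 7.64, 16.3 and 10.2 CPM, with a ratio of 2.71 (1.88 to 4.0) for Enl-T1 over Enl-WT. Osr1, a zinc-finger factor of early progenitors, was at 70.9, 32.5 and 79.0 CPM, with ratios of 0.581 and 2.43 in the 2 steps. With treated over untreated Enl-T1, 18 of the list were counted, and 5 were called higher and 4 lower, against 14.1% of all genes called. The median was 0.984. The 5 included the growth factor genes Fgf20 (3.62 and 8.25 CPM in Enl-T1 and treated Enl-T1, ratio 2.27) and Fgf8 (21.1 and 39.5 CPM, ratio 1.87). Wt1 was at 172, 113 and 64.9 CPM in the 3 libraries, all from embryos with 1 working copy.

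An unnamed nephron class led by Sst, Akap12 and Meg3 held 38 Enl-WT, 248 Enl-T1 and 36 treated Enl-T1 cells. All 6 genes were called for Enl-T1 over Enl-WT, 2 higher and 4 lower, against 54.4% of all genes in this class of 30 to 49 Enl-WT cells. Wnt4 was at 61.6, 439 and 437 CPM in the 3 libraries and Pax2 at 189, 456 and 488 CPM, so that Enl-T1 and treated Enl-T1 lay together above Enl-WT. The relative ratios of Enl-T1 over Enl-WT were 9.94 (5.99 to 17.8) for Wnt4 and 3.36 (2.50 to 4.62) for Pax2. With the drug they were 0.915 (0.795 to 1.05) and 0.985 (0.861 to 1.12).

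Pax8 in this class was at 160.1, 47.6 and 67.6 CPM, Emx2 at 49.3, 11.9 and 13.2 CPM, and Gata3 at 45.2, 12.4 and 3.30 CPM. Lhx1 had 6 UMIs in the Enl-WT cells, 1 in the 248 Enl-T1 cells and 1 in the treated Enl-T1 cells. After thinning, Wnt4 was found in 121 of 246 Enl-T1 cells (49.2%) and Lhx1 in 0 of 246, which allows a share of up to 1.22%. At least 2 of Wnt4, Lhx1 and Pax8 were found in 2.85% of these cells and exactly 1 in 50.8%. The Enl-WT cells of the class were not of the same kind: the 8 podocyte markers summed to 1609 CPM in them, against 78.5 and 90.6 CPM in the other two libraries. The part of that difference in these ratios was not tested.

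Committed nephron-like cells (209, 40 and 94 cells) held the highest Lhx1 of the nephron, and their 13 markers summed to 2825, 2598 and 2039 CPM. Wnt4 alone of the 6 genes was called for Enl-T1 over Enl-WT, higher, against 38.9% of all genes. It was at 636, 846 and 629 CPM, with a relative ratio of 1.63 (1.47 to 1.81) from 40 Enl-T1 cells. The plain CPM ratio was 1.33, and the relative ratio was 1.25 when the endothelial-like level was subtracted from every gene, which also moves the median, so that this call depended on the scaling. Lhx1 was at 441, 485 and 359 CPM, with ratios of 1.35 (1.17 to 1.54) and 0.781 (0.675 to 0.905) in the 2 steps. Pax2 was at 305, 345 and 198 CPM, with a ratio of 0.605 (0.503 to 0.728) for treated over untreated Enl-T1. Pax8 at 191, 185 and 198 CPM and Emx2 at 114, 105 and 88.1 CPM lay within 1.5-fold in all 3 comparisons. For treated Enl-T1 over Enl-WT, 1 of 6 genes was called against 50.8% of all genes, and that gene was Gata3, from 13 and 3 UMIs.

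In cells of the distal tubule and loop of Henle (590, 108 and 233 cells), Wnt4, Pax2 and Emx2 of the 6 genes were called for Enl-T1 over Enl-WT, all higher, against 31.7% of all genes. Emx2 was at 138 CPM (127 to 151), 218 CPM (194 to 245) and 157 CPM (144 to 172), with a relative ratio of 1.87 (1.62 to 2.17). Pax2 was at 319, 434 and 269 CPM, with a ratio of 1.62 (1.46 to 1.79). Over the alternatives the ratios ran from 1.49 to 2.18 for Emx2 and from 1.35 to 1.72 for Pax2. These ranges reach below the 1.5-fold limit, so both calls depended on the processing. Both genes were thus highest in Enl-T1, and both were higher than Enl-WT in each of the 2 clusters of the class, by 1.49 and 2.61 for Emx2 and by 1.45 and 1.88 for Pax2. After thinning, Emx2 was found in 23.8%, 37.4% and 20.6% of cells and Pax2 in 43.0%, 59.8% and 33.3%.

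Wnt4 was at 34.96, 86.1 and 32.6 CPM in these cells, with a ratio of 2.93 (2.26 to 3.799), but it was found in 5.85%, 4.67% and 5.70% of cells, which were 34, 5 and 13 cells. The share did not follow the level, so no order of cells was read from it. For treated over untreated Enl-T1, Wnt4 (0.391) and Pax2 (0.640) were called lower, against 22.1% of all genes. For treated Enl-T1 over Enl-WT, Lhx1 alone was called, higher, against 41.1% of all genes, at 192 and 250.3 CPM and a ratio of 1.62 (1.46 to 1.80). Gata3, a marker of the distal segment that joins the collecting duct, was at 131, 87.6 and 126 CPM and Pax8 at 142, 140.1 and 133 CPM, all within 1.5-fold. For treated over untreated Enl-T1 the ratio of Gata3 ran from 1.26 to 1.65 over the alternatives. It was 0.975 (0.711 to 1.35) in the cluster led by Sim1 and 1.83 (1.37 to 2.48) in that led by Slc12a1. The 11 markers of the class summed to 2878, 1160 and 1582 CPM.

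Proximal tubule-like cells numbered 259, 31 and 67. Wnt4 was at 70.0, 279.9 and 190.2 CPM, Lhx1 at 81.5, 382 and 305 CPM, Pax2 at 76.0, 256 and 106 CPM and Pax8 at 138, 245 and 203 CPM, in each case lowest in Enl-WT. For treated Enl-T1 over Enl-WT these 4 of 6 genes were called higher, against 53.5% of all genes, with ratios of 3.54 (2.75 to 4.55) for Wnt4, 4.88 (3.93 to 6.08) for Lhx1, 1.82 (1.36 to 2.42) for Pax2 and 1.92 (1.56 to 2.37) for Pax8. The 9 markers of the class summed to 5107 CPM in Enl-WT, 353 CPM in Enl-T1 and 656 CPM in treated Enl-T1, and Cubn and Fbp1 were at 0 in Enl-T1. The label therefore goes against the data in the last 2 libraries, and with classes from all variable genes the Lhx1 ratio was 0.503.

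The same held for podocyte-like cells (225, 40 and 31 cells), whose 8 markers summed to 10566, 195 and 2919 CPM, with Podxl at 0 in Enl-T1. Wnt4 in them was at 11.9, 409 and 86.2 CPM and Pax2, which podocytes normally silence, at 35.8, 498 and 273 CPM. Pax8 was at 98.5, 221 and 382 CPM and Lhx1 at 72.2, 92.4 and 318 CPM. The Enl-T1 cells grouped here thus carried Wnt4 and Pax2 and lacked the markers of the name, and no call is made from them.

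The ureteric epithelium is a lineage in which Cre is not active. In ureteric tip-like cells (800, 355 and 462 cells), 1 of 6 genes, Wnt4, was called for Enl-T1 over Enl-WT, against 21.6% of all genes, and the same gene for treated over untreated Enl-T1, against 12.9%. It was at 35.4, 56.6 and 17.1 CPM, an order that the endothelial-like cells share, and no gene was called for Enl-T1 over Enl-WT after subtraction of their level. Gata3, which is required for growth of the ureteric bud, was at 429.7, 388 and 333 CPM, with ratios of 1.10 (1.03 to 1.17) and 0.870 (0.822 to 0.921). Pax2 was at 309, 272 and 240.1 CPM, Lhx1 at 84.2, 64.7 and 94.2 CPM, Emx2 at 102, 119 and 96.5 CPM and Pax8 at 75.0, 71.5 and 54.7 CPM, all within 1.5-fold.

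In the ureteric trunk and collecting duct (357, 324 and 206 cells) no gene of 6 was called for Enl-T1 over Enl-WT, against 28.8% of all genes, although with plain CPM ratios 2 were. Wnt4 was at 453, 471 and 359.6 CPM there and Gata3 at 536, 396 and 367 CPM. For treated over untreated Enl-T1, Lhx1 alone was called, at 10.4 and 17.4 CPM, against 15.0% of all genes. In urothelium-like cells (133, 254 and 51 cells) Wnt4 was at 539, 538 and 524 CPM and Gata3 at 448, 339 and 366 CPM. Lhx1 was called lower for Enl-T1 over Enl-WT from 6 and 13 UMIs, against 33.3% of all genes. Pax8 (32.3 and 79.2 CPM, ratio 2.28, 1.68 to 3.08) and Lhx1 were called higher for treated over untreated Enl-T1, against 25.0% of all genes. The 7 markers of the class summed to 2356, 4252 and 1213 CPM, and Krt5 was at 0 in treated Enl-T1. The part of that difference in these ratios was not tested.

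With the drug the ratio of Pax2 lay lower in some classes of the nephron than in those of the ureteric epithelium, but not in each. Its relative ratio of treated over untreated Enl-T1 was 0.616 in nephron progenitor-like, 0.605 in committed nephron-like and 0.640 in distal tubule-like cells, and 0.893 in ureteric tip-like, 0.817 in ureteric trunk-like and 0.9202 in urothelium-like cells. The intervals of the first set (0.503 to 0.728 at their widest) did not meet those of the second (0.752 to 1.10). With 1 library a group, the difference between lineages was not tested. In the unnamed class led by Sst, also of the nephron, the ratio was 0.985. In another unnamed nephron class, led by Hist1h2ae, Npy and Aurkb (87 untreated and 204 treated Enl-T1 cells), Pax2 was at 217 and 140 CPM and was not called.

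Wnt4 also differed in the stroma, where it is known from the medulla. In the unnamed class led by Gap43, Nrxn3 and Apcdd1 (53, 150 and 16 cells) it was at 652, 737 and 700.1 CPM, within 1.5-fold for Enl-T1 over Enl-WT (1.38, 1.15 to 1.68). In medullary stroma-like cells (87 Enl-WT and 208 Enl-T1 cells) it was at 107 CPM (72.9 to 150.4) and 331 CPM (299.7 to 364), with a relative ratio of 4.12 (2.87 to 6.1). The markers of that class summed to 8055 and 5692 CPM. Of 4 genes counted there all were called, 2 higher and 2 lower, against 43.4% of all genes, and those other than Wnt4 rested on 3 to 26 UMIs a library. In ureteric stroma-like cells (49 and 247 cells) Wnt4 was at 24.0 and 115 CPM, beside endothelial-like levels of 18.3 and 40.0 CPM. The 6 markers of that class summed to 3161 CPM in Enl-WT and 650 CPM in Enl-T1, and the part of that difference was not tested.

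In cortical stroma-like cells (410, 497 and 189 cells), 3 of 3 genes were called higher for Enl-T1 over Enl-WT, against 28.5% of all genes, all at low levels. Wnt4 was at 40.6, 65.0 and 11.1 CPM, Pax2 at 7.83, 18.5 and 8.08 CPM and Gata3 at 4.90, 16.4 and 8.93 CPM. None of the 3 was called after subtraction of the endothelial-like level, but for Pax2 and Gata3 this decides nothing. In Enl-WT their endothelial-like levels (24.5 and 13.5 CPM) were above those of cortical stroma-like cells, so no ratio could be formed. In Enl-T1 the endothelial-like levels (7.82 and 6.88 CPM) were below them.

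Gata3 was called lower in Enl-T1 renin and mesangial-like cells. These cells, which include the pericytes of the glomerulus and the renin cells of its arteriole, were 161 in Enl-WT and 68 in Enl-T1, with 16 in treated Enl-T1. Gata3 was at 332 CPM (295 to 373) in Enl-WT, 33.6 CPM (20.8 to 51.4) in Enl-T1 and 146 CPM (105 to 196) in the 16 treated Enl-T1 cells, and the 3 intervals did not meet. The relative ratio of Enl-T1 over Enl-WT was 0.122 (0.0746 to 0.191), and 0.0787 to 0.158 over the alternatives. Gata3 was found in 72 of 159 Enl-WT cells (45.3%) and 4 of 68 Enl-T1 cells (5.88%) after thinning, and in 1.56% and 2.33% of endothelial-like cells of the same libraries. Of 3 genes counted there, Gata3 was called lower and Wnt4 and Pax2 higher, against 42.5% of all genes.

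Both clusters of the class showed it. In the cluster led by Ren1 and Akr1b7 (105, 42 and 13 cells), Gata3 was at 368, 57.1 and 193 CPM in the Enl-WT, Enl-T1 and treated Enl-T1 libraries. In the cluster led by Itga6 and Abcc9 (56, 26 and 3 cells) it was at 292, 9.68 and 34.2 CPM, the last from too few cells to be read as a level. The relative ratios of Enl-T1 over Enl-WT were 0.185 (0.107 to 0.301) and 0.0387 (0.00787 to 0.116), the second from 119 and 3 UMIs. The 6 markers of the class summed to 5786 CPM in Enl-WT and 2497 CPM in Enl-T1, all 6 above 0, and the part of that difference in the result was not tested. Wnt4 lay the other way, at 17.4 and 84.8 CPM, against endothelial-like levels of 18.3 and 40.0 CPM.

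**Figure D5:**
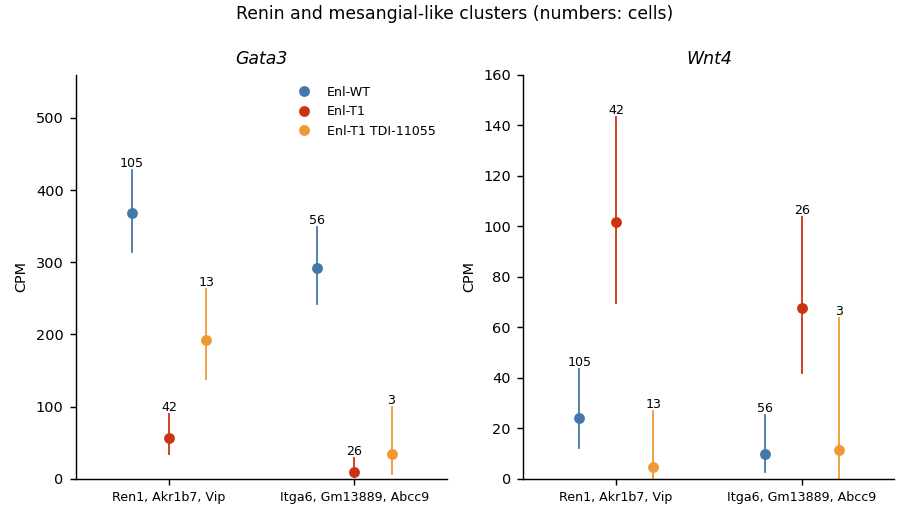
Levels of Gata3 and Wnt4 (CPM) in the 2 renin and mesangial-like clusters, named by their leading genes, with 1 point for each library, exact Poisson 95% intervals and the number of cells. Gata3 lies at 368 CPM in Enl-WT and 57.1 CPM in Enl-T1 in the Ren1 cluster, and at 292 and 9.68 CPM in the Itga6 cluster.

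The genes whose levels followed each member most closely were found by Pearson's r of log2(CPM + 5) over 46 combinations of class and library with at least 50 cells, among 11094 genes. The combinations share libraries, depth and free RNA, and r is given as a description. Wnt4 had no close match, the highest being Rhou (0.81), C1qtnf12 (0.67) and Gstm1 (0.64), and its r with Lhx1 was -0.02. For Lhx1 they were Lhx1os (0.96), a transcript on the opposite strand whose annotated start, at chr11:84525660, lies within the upstream window shown, and Gm17750 (0.86). Pax2 was matched by Pla2g12a, Hoxb6 and Lsr (0.88 to 0.90) and Pax8 by Zfp219, Klhl14 and Cxadr (0.90 each). Gata3 was matched by Cldn8 (0.95), a tight-junction gene of the collecting duct. Over the same combinations r was 0.87 between Pax2 and Pax8 and 0.85 between Pax8 and Emx2.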

How the data were processed

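The authors deposited raw counts of UMIs per gene and barcode, made with Cell Ranger 6.1.2 on mouse build mm10, for 3 libraries of pooled E15.5 kidneys. No correction for free RNA had been made. Barcodes with 1000 to 6000 genes and at most 10% mitochondrial UMIs were kept, the filter of the study's methods. Libraries were integrated and clustered with Seurat 5.3.0 under R 4.3.3, from at most 2000 variable genes (30 principal components, resolution 0.5, then 20 and 0.8 within a lineage), without 172 genes of interest and 130 technical genes. A cluster took the name of the list of its lineage with most markers among its 10 leading genes or, in a tie or with none there, with the highest mean log2 fold of its markers. It stayed unnamed where that mean was not above 0, fewer than 3 markers were detected in 10% of cells, another lineage had more markers among the leading genes, or a far shallower cluster had none there. Names were thus rebuilt and may differ from those of the study. Doublets were left in, and Scrublet (scanpy 1.11.5) gave an alternative (125, 45 and 61 barcodes removed; its own threshold marked 3 in the Enl-T1 TDI-11055 library, so the highest scores were taken). Summed counts were given as CPM with exact Poisson intervals, ratios with exact intervals from the split of the counts, and shares with exact Clopper-Pearson intervals (Python 3.11.15, numpy 2.4.6, scipy 1.17.1, pandas 2.3.3). Total UMIs of all barcodes were 37221435, 63336586 and 76619303. Members were always named, list genes only past 1.5-fold with an interval that excluded 1, at most 4 per comparison, and the 3 most similar genes by r, of which some are not reported here. Axin2 was named besides, after its values were seen. The members and all lists were chosen with earlier results of these data known.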

Additional observations from a re-analysis of the deposited data

Results flagged for a closer look

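3 results were singled out because a gene lay past 1.5-fold in opposite directions in different classes under the same comparison. In no case was the difference between the classes tested, since each group was 1 library. Gata3 in Enl-T1 over Enl-WT had a relative ratio of 4.03 in cortical stroma-like cells, at 4.90 and 16.4 CPM, and of 0.122 in renin and mesangial-like cells, at 332 and 33.6 CPM, so that the first concerns levels near those of endothelial-like cells (13.5 and 6.88 CPM) and the second does not. Wnt4 in treated Enl-T1 over Enl-WT had a ratio of 3.54 in proximal tubule-like cells and of 0.330 in cortical stroma-like cells, at 40.6 and 11.1 CPM, where endothelial-like cells held 18.3 and 8.39 CPM. Lhx1 in treated Enl-T1 over Enl-WT had a ratio of 4.88 in proximal tubule-like cells and of 0.529 in nephron progenitor-like cells, at 15.9 and 6.70 CPM beside 10.7 and 1.12 CPM in endothelial-like cells. Both of these Lhx1 directions depended on the processing: the ratio was 0.503 in proximal tubule-like cells with classes from all variable genes, and in nephron progenitor-like cells 1.30 with endothelial-like levels subtracted and 1.44 with the mean of the cells' own CPM. Proximal tubule-like cells of the treated Enl-T1 library held their 9 markers at 656 CPM, against 5107 CPM in Enl-WT.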

How the results depend on the processing

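Of 915 relative ratios recomputed under an alternative, 840 kept their direction. In a second sorting of the same ratios, 749 were classed as the same, 160 as moved and 6 as reversed. The last had been called or counted and crossed 1. For counts of called genes 146 stayed within 1.5 times and 50 did not, most of them counts of 1 to 4 genes. In what follows, "mutant", "drug" and "treated" stand for the comparisons of Enl-T1 over Enl-WT, of treated over untreated Enl-T1, and of treated Enl-T1 over Enl-WT, and each value replaces the count or ratio given above. The cause was not tested, except that a stricter fold, fewer cells or a subtraction leaves fewer genes to call by construction. With 1500 to 6000 genes and at most 5% mitochondrial UMIs, 0 genes were called in committed nephron-like cells (treated) and 1 in distal tubule-like cells (drug), and at least 2 induction genes were found in 6.03% (Enl-WT) and 4.98% (Enl-T1) of nephron progenitor-like cells. With a limit of 2-fold, the counts were 1 (drug) and 0 (treated) in nephron progenitor-like, 0 (mutant) in committed nephron-like, 1, 1 and 0 (mutant, drug, treated) in distal tubule-like, 2 (treated) in proximal tubule-like, 0 (mutant) in ureteric tip-like, 0 (drug) in ureteric trunk-like and 0 (mutant) in urothelium-like cells. With classes from all variable genes, they were 4 (mutant) and 2 (treated) in committed nephron-like and 0 (mutant) in urothelium-like cells, and Lhx1 in proximal tubule-like cells (treated) crossed to 0.503. With doublets removed, 0 genes were called in committed nephron-like cells (treated). With endothelial-like levels subtracted, Lhx1 in nephron progenitor-like cells (treated) crossed to 1.30, and the counts were 0 and 0 in committed nephron-like (mutant, treated), 2 in distal tubule-like (treated), 0 in ureteric tip-like (mutant), 1 and 0 in ureteric trunk-like (mutant, drug), 0 in urothelium-like (mutant), 0 in cortical stroma-like, 1 in medullary stroma-like and 1 in renin and mesangial-like cells (mutant). In female cells alone, they were 2 in committed nephron-like (mutant), 2 in distal tubule-like (treated), 2 in ureteric tip-like (drug), 1 in ureteric trunk-like, 1 in cortical stroma-like and 2 in medullary stroma-like cells (mutant). In male cells alone, Gata3 in nephron progenitor-like cells (mutant) crossed to 0.960 and Pax2 in medullary stroma-like cells (mutant) to 1.08, and the counts were 2 in committed nephron-like (treated), 2 in ureteric tip-like and 2 in medullary stroma-like cells (mutant). With the mean of the cells' own CPM, Lhx1 in nephron progenitor-like cells (treated) crossed to 1.44 and Pax2 in medullary stroma-like cells (mutant) to 1.99, and the counts were 2 in nephron progenitor-like (treated), 2 and 0 in committed nephron-like (mutant, treated), 2 in distal tubule-like (treated), 0 in ureteric trunk-like (drug) and 0 in urothelium-like cells (mutant). With no CPM minimum, they were 2 in nephron progenitor-like (treated) and 2 in ureteric tip-like cells (drug). With plain CPM, they were 2 in nephron progenitor-like (treated), 2 in committed nephron-like (treated), 0 in distal tubule-like (treated) and 2 in ureteric trunk-like cells (mutant). With totals that leave out mitochondrial, ribosomal protein and haemoglobin genes, they were 0 in distal tubule-like (treated), 1 in ureteric trunk-like (mutant) and 5 in renin and mesangial-like cells (mutant). Thinning to 4000 UMIs gave at least 2 induction genes in 6.64%, 9.32% and 8.79% of nephron progenitor-like cells (Enl-WT, Enl-T1, treated Enl-T1), and no thinning 10.48%, 31.8% and 28.6%. No paired analysis was possible because each group is 1 library and no result comes from a test.

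Depth limits the low values: Lhx1, Emx2 and Gata3 in nephron progenitor-like cells rest on 16 to 78 UMIs a library, and classes of under 50 cells on fewer. Embryos, preparation and library cannot be told apart from genotype and drug with 1 library a group, and neither can fewer cells of a kind within a class and less RNA per cell. Dosing by mouth cannot be told apart from TDI-11055, since the Enl-WT and Enl-T1 libraries are labelled as without treatment. The sex mix differed between libraries.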
